A study of Homo sapiens with 4 samples.

Results

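The 10 genes described here encode parts of the pre-B cell receptor, without its heavy chain, and the first proteins that relay its signal. They were taken by symbol from the deposited count table (10 of 23368 entries) and comprise the surrogate light chain genes VPREB1 and IGLL1 with the related VPREB3, the signalling dimer CD79A and CD79B, the adaptor BLNK, and the kinases SYK, LYN, BLK and BTK. RNA-seq libraries came from 4 established human lines of precursor-B acute lymphoblastic leukemia, a cancer of immature B cells, with 1 library each. The translocation t(4;11), which rearranges the MLL gene (KMT2A), is present in RS4;11 and SEM and absent from NALM6 and REH. All 4 lines were cultured in RPMI with 10% fetal bovine serum with no treatment named, and each line derives from a different leukemia, so a group of 2 lines (n = 2) also holds every other difference between those leukemias. The purpose read from the labels is to find how lines with and without t(4;11) differ.

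In a developing B cell the immunoglobulin heavy chain first pairs with a surrogate light chain, made of the VPREB1 and IGLL1 proteins, before a conventional light chain exists. The complex reaches the cell surface with CD79A and CD79B, whose cytoplasmic tails are phosphorylated by SRC-family kinases such as LYN and BLK and then bind SYK. SYK phosphorylates BLNK, which brings BTK to phospholipase C gamma, and this step opens the calcium and protein kinase C branches that end the proliferating pre-B stage. Germline loss of BTK or BLNK function blocks human B cell development.

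Summed gene counts lay between 33620574 (SEM) and 84212986 (REH). Levels are given as CPM, counts scaled to the sum of the line, and log2 fold changes as t(4;11) over no t(4;11), so that a negative value is lower with t(4;11). Of 9 B-precursor marker genes, 3 of them members described here, 6 had at least 10 CPM in every line. The others were VPREB1, DNTT and RAG1. In RS4;11, SEM, NALM6 and REH, DNTT had 12.9, 0.744, 759 and 1912.8 CPM and RAG1 had 226, 1.84, 696 and 3314.5 CPM. The 7 T and NK cell markers summed to 26.1 and 11.2 CPM in RS4;11 and SEM and to 0.959 and 1.69 CPM in NALM6 and REH. Nearly all of this was NKG7, a gene of cytotoxic cells (26.1, 11.1, 0.914 and 1.50 CPM in that order, edgeR log2 fold change 4.05 ± 0.74 SE, adjusted p = 0.310), while CD3D, CD3E, CD3G and KLRD1 had 0 counts in every line. The summed level of 6 myeloid markers was highest in SEM (197 CPM, of which CEBPA gave 159), with 23.9 in RS4;11, 9.28 in NALM6 and 44.6 in REH, and none of the 6 was at 0 in every line. SEM was also the lowest line for 7 of the 10 genes, and the part of the myeloid, T and NK cell genes in the results was not tested. In RNA of a whole culture, fewer cells that express a gene and less RNA per cell cannot be told apart.

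BLNK, CD79B and VPREB3 were low in both t(4;11) lines and lowest in SEM. VPREB1 and LYN were at or near their highest in RS4;11 and NALM6 and lowest in REH. BTK and BLK varied least, by 1.63-fold and 2.03-fold over the 4 lines. The widest span over the lines was 1455.2-fold for BLNK, whose SEM level rests on 6 counts. The median span was 23.2-fold over the 10 genes and 2.03-fold over the 13844 genes that passed the filter on low counts. Of these 13844 genes, 6.68% spanned at least as widely as BLNK. All 10 genes passed the filter.

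**Figure D1:**
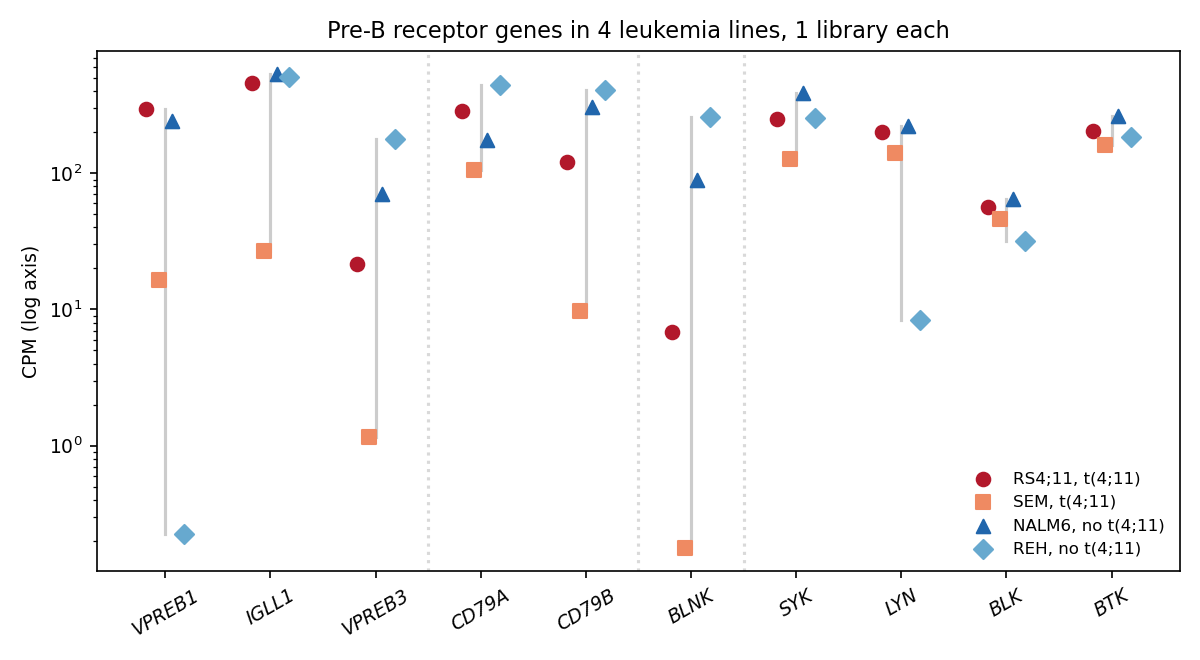
Level of each of the 10 genes in each line, in CPM on a log axis, where each point is 1 library and the grey line joins the lowest and the highest. SEM (squares) is the lowest point for IGLL1, VPREB3, CD79A, CD79B, BLNK, SYK and BTK, while REH (diamonds) is the lowest for VPREB1, LYN and BLK.

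With 2 lines per group no member passed the test. The quasi-likelihood test of edgeR, adjusted over all genes by the Benjamini-Hochberg method at 0.05, called 0 of 10 members higher and 0 lower, and 0% of the 13844 genes tested in either direction. At an unadjusted p under 0.05 it gave 0 of 10 members, against 6.18% of all tested genes higher and 5.87% lower. The authors' deposited DESeq table called 1 member lower (CD79B), where it called 0.630% of its 18416 genes with an adjusted p. The authors' deposited Cuffdiff table called 3 members lower (CD79B, BLNK and VPREB3), where it called 1.11% of 14203 tested genes. Neither deposited table called a member higher, against 0.934% and 1.23% of their genes. DESeq2, run on the same counts, called 1 member (BLNK, log2 fold change -5.52, adjusted p = 0.00386) lower, where it called 5.53% of 14192 genes lower and 5.64% higher. The exact test of edgeR called 0 members, where it called 1.03% of genes lower and 1.91% higher.

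Both translocated lines lay below both other lines for 5 members (IGLL1, VPREB3, CD79B, BLNK and SYK), a pattern shown by 28.3% of all tested genes. For IGLL1 (462 CPM in RS4;11, 505 in REH) and SYK (250 and 253 CPM) RS4;11 was close to REH. No member stood above in both, against 19.0% of all tested genes. With TMM scaling, which corrects library size for a few very abundant genes, SYK overlapped and 4 members were left, while the shares over all genes moved to 23.4% lower and 24.2% higher. The median log2 fold change was -0.61 over the 10 members and -0.02 over all tested genes.

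**Figure D2:**
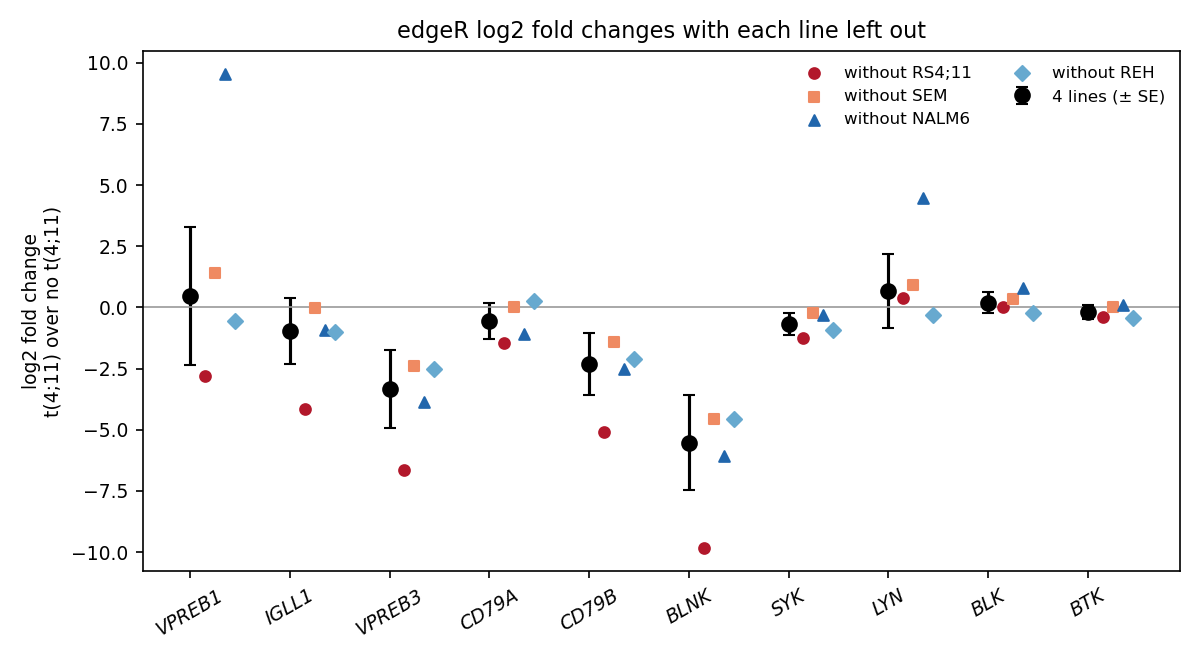
Log2 fold change, t(4;11) over no t(4;11), from edgeR for each gene (black, with its standard error, 2 lines per group) and the value when each line is left out (coloured symbols). BLNK, CD79B, VPREB3, IGLL1 and SYK stay below 0 under each omission, while VPREB1 runs from -2.80 without RS4;11 to 9.52 without NALM6.

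The surrogate light chain genes lie on chromosome 22 and are shown with the sequence before their start sites because all 3 were 17.0-fold to 18.7-fold lower in SEM than in RS4;11. The 250 bases upstream of each start, and those of BLNK, are given 5′ to 3′ along the gene (RefSeq, GRCh38.p14, with VPREB1 at chr22:22244536-22244785 on the plus strand, IGLL1 at chr22:23580291-23580540, VPREB3 at chr22:23754426-23754675 and BLNK at chr10:96271570-96271819 on the minus strand). Capitals mark the E-box CAGGTG, or its reverse complement CACCTG, the letters bound by the E protein family to which TCF3 belongs.
VPREB1: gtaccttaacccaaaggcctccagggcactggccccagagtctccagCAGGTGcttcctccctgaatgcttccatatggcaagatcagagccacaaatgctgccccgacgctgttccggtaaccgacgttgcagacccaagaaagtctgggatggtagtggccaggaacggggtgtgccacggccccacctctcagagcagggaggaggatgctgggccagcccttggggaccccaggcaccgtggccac
IGLL1: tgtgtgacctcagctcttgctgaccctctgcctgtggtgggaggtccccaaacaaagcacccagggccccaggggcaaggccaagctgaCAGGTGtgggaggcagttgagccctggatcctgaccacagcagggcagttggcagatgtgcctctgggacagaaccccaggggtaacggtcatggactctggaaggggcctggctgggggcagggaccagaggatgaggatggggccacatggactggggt
VPREB3: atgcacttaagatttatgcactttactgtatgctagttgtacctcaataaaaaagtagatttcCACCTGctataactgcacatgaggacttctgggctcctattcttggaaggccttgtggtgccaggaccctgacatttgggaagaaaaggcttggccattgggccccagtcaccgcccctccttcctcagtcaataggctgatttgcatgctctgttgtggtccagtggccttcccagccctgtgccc
BLNK: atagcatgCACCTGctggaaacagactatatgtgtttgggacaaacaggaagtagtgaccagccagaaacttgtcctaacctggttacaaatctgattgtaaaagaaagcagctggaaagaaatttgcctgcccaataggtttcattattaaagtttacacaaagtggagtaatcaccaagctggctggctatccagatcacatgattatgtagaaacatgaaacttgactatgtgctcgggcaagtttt
Of the 10 members 7 had an entry in the RefSeq promoter table, and CD79B, LYN and BLK had none. The E-box CAGGTG occurred on either strand in a window of 6 of these 7 genes (VPREB1, IGLL1, VPREB3, CD79A, BLNK and SYK) and in 17.5% of all 35116 windows of this length. SYK had windows at different start sites, and a gene was counted if any of its windows matched. The percentages are per window, so the gene counts and the percentages are not in the same unit. It began 203 bases before the start in VPREB1, 161 in IGLL1, 187 in VPREB3 and 242 in BLNK. Of 9 letter patterns searched on both strands, CCCNNGGG, the core of the EBF1 site, occurred in VPREB1, IGLL1 and BTK and in 17.1% of all windows. The octamer ATGCAAAT, the site of the OCT factors that recruit POU2AF1, occurred in VPREB3 alone and in 1.63% of all windows. The others were CAGCTG (BLNK, 14.0% of windows), GAGGAA (4 of the 7 genes, 23.6%), TGGGAA (2 genes, 20.8%) and TGTGGT (IGLL1, VPREB3 and CD79A, 11.0%), while a longer form of the EBF1 site (1.06%) and GTAAACA (2.98%) occurred in none of the 7. A match of letters is a description of the sequence and shows no binding.

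VPREB1, the variable-region-like part of the surrogate light chain, had 294 CPM in RS4;11, 16.4 in SEM, 244 in NALM6 and 0.226 in REH. A line of each group was high and a line of each group was low, so the groups overlapped. The REH level rests on 19 counts (95% exact Poisson interval 0.136 to 0.352 CPM, counting error only) and was 1081.7-fold below NALM6. The gene had the least certain difference between the groups, with a log2 fold change of 0.47 ± 2.81 (SE, adjusted p = 0.960 by edgeR), and its sign depended on single lines: -2.80 without RS4;11 and -0.55 without REH. VPREB1 covers chr22:22599200-22599926 (hg19) within the immunoglobulin lambda locus.

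IGLL1, the constant-region-like part known as lambda 5, had 462 CPM in RS4;11, 27.1 in SEM, 532 in NALM6 and 505 in REH. SEM alone was low. Its log2 fold change was -0.97 ± 1.34 (SE, adjusted p = 0.804 by edgeR), with -0.04 without SEM and -4.16 without RS4;11. IGLL1 (chr22:23915313-23922495, hg19) closely resembles IGLL5 and the lambda constant genes, so reads could be split among them or lost in the counting. How many IGLL1 reads were affected was not tested. The IGLL5 row held at most 3.79 CPM (NALM6) and had 0 counts in REH, which allows up to 0.0356 CPM.

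The ratio of the surrogate light chain genes was far lower in REH than in the other lines. VPREB1 counts divided by IGLL1 counts gave 0.637 in RS4;11, 0.605 in SEM and 0.459 in NALM6. In REH it was 0.000447. SEM had both genes low in the proportion found in RS4;11, whereas REH had a high IGLL1 level beside almost no VPREB1. These are ratios within single libraries, with no test.

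VPREB3 encodes a VPREB-like protein of the endoplasmic reticulum that associates with immunoglobulin chains. It had 21.7 CPM in RS4;11, 1.16 in SEM, 69.9 in NALM6 and 180 in REH. The SEM level rests on 39 counts (95% exact Poisson interval 0.825 to 1.59 CPM). Both t(4;11) lines lay below both other lines, at 11.4 ± 14.5 CPM against 125 ± 77.8 CPM (SD, n = 2 each). The log2 fold change was -3.33 ± 1.58 (SE, adjusted p = 0.502 by edgeR) and ran from -6.65 without RS4;11 to -2.40 without SEM. In the authors' deposited Cuffdiff table VPREB3 was called (q = 0.0346), and not in the authors' deposited DESeq table (adjusted p = 0.563). VPREB3 (chr22:24094930-24096630, hg19) did not follow VPREB1: REH, the lowest line for VPREB1, was the highest for VPREB3.

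CD79A and CD79B carry the tyrosine motifs through which the receptor signals, and their proteins form a dimer. CD79A had 285 CPM in RS4;11, 105 in SEM, 176 in NALM6 and 442 in REH. The groups overlapped, with RS4;11 between NALM6 and REH. CD79A lies at chr19:42381190-42385439, SYK at chr9:93564012-93660842 and BTK at chrX:100604435-100641212 (hg19). The CD79A log2 fold change was -0.56 ± 0.73 (SE, adjusted p = 0.793 by edgeR), and it was 0.25 without REH and 0.01 without SEM.

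CD79B had 122 CPM in RS4;11, 9.73 in SEM, 305 in NALM6 and 406 in REH. The groups did not overlap, and SEM was 12.6-fold below RS4;11. The group levels were 66.1 ± 79.7 CPM with the translocation and 356 ± 71.9 CPM without it (SD, n = 2 each), a log2 fold change of -2.31 ± 1.28 (SE, adjusted p = 0.549 by edgeR). It was -5.10 without RS4;11 and -1.41 without SEM. CD79B (chr17:62006098-62009704, hg19) was the only member called in both the authors' deposited DESeq table (adjusted p = 0.0252) and the authors' deposited Cuffdiff table (q = 0.00418). The ratio of CD79A to CD79B counts was 0.577 in NALM6, 1.09 in REH and 2.33 in RS4;11, and it was highest in SEM at 10.8. SEM was 2.71-fold below RS4;11 for CD79A.

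BLNK, also called SLP-65, links SYK to BTK and phospholipase C gamma. It had 6.82 CPM in RS4;11, 0.178 in SEM, 89.5 in NALM6 and 260 in REH. Both t(4;11) lines were far below both others, and the lower line without the translocation was still above RS4;11 by more than the counting error. The SEM level rests on 6 counts (95% exact Poisson interval 0.0655 to 0.388 CPM) and that of RS4;11 on 354 counts (6.13 to 7.57 CPM). The group levels were 3.50 ± 4.70 CPM and 175 ± 120 CPM (SD, n = 2 each), 49.9-fold apart. The log2 fold change of -5.52 (SE 1.96) had an unadjusted p of 0.0517 and an adjusted p of 0.415 in edgeR's quasi-likelihood test, and it lay between -9.82 without RS4;11 and -4.55 without SEM. In the authors' deposited Cuffdiff table BLNK (chr10:97951455-98031333, hg19) was called with q = 0.0449, and in the authors' deposited DESeq table its adjusted p was 0.131.

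Other adaptors of this class were measured beside BLNK. Per length, as CPM divided by the annotated exon length in kilobases (RPKM), BLNK stood at 3.31 in RS4;11, 0.0866 in SEM, 43.4 in NALM6 and 126 in REH. LCP2, the SLP-76 adaptor of T cells and myeloid cells, stood at 7.94, 6.90, 5.90 and 6.20 RPKM in the same order, so that in both translocated lines it exceeded BLNK. LAT2, a membrane adaptor of B and mast cells, was the most abundant of the 5 in every line, with 125, 69.3, 66.0 and 146 RPKM. CLNK had 0 counts in all 4 lines.

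The 4 kinases were closer between lines than the receptor chains, apart from LYN. SYK, the kinase that docks on the phosphorylated CD79 tails, had 250 CPM in RS4;11, 127 in SEM, 389 in NALM6 and 253 in REH. SYK in RS4;11 and REH was almost equal, and the group difference (edgeR: log2 fold change -0.66 ± 0.45 SE, adjusted p = 0.612) did not pass the test, with values from -1.24 to -0.23 when a line was left out. BTK, the kinase lost in X-linked agammaglobulinemia, had 205 CPM in RS4;11, 162 in SEM, 264 in NALM6 and 185 in REH. BTK spanned 1.63-fold, and 67.4% of tested genes spanned at least as much. BLK, a SRC-family kinase largely restricted to B cells, had 56.6, 45.9, 64.9 and 31.9 CPM in RS4;11, SEM, NALM6 and REH. The log2 fold changes of BTK and BLK were -0.19 (SE 0.27) and 0.19 (SE 0.43), with edgeR adjusted p of 0.810 and 0.888. Without NALM6 the value of BTK was 0.09, and without REH that of BLK was -0.24.

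LYN, the most abundant SRC-family kinase of 3 of these lines, had 201 CPM in RS4;11, 140 in SEM, 224 in NALM6 and 8.35 in REH. REH alone was low, 26.8-fold below NALM6, on 703 counts. The log2 fold change between the groups was 0.67 (SE 1.50, edgeR adjusted p = 0.888), and it was -0.29 without REH and 4.46 without NALM6.

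Per length LYN stood at 34.1 RPKM in RS4;11, 23.8 in SEM, 38.0 in NALM6 and 1.42 in REH. Both SRC and FYN were highest in REH. SRC itself stood at 7.81 RPKM in REH and between 0.164 and 0.329 RPKM in the others, and FYN stood at 16.0 RPKM in REH against 5.14 to 9.61 RPKM. BLK stood at 11.1 RPKM in REH, above LYN, whereas in each other line LYN exceeded BLK. With 1 library of REH these differences carry no test, and SRC, FYN and ZAP70 were picked after their values were seen.

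The SYK relative ZAP70, the kinase that serves the T cell receptor, was also present in 3 of the lines. ZAP70 had 125 CPM in RS4;11, 66.0 in SEM, 117 in NALM6 and 1.51 in REH. Per length, with the exon lengths used here, it was close to SYK in RS4;11 (49.0 against 48.3 RPKM) and SEM (25.9 against 24.6 RPKM). ZAP70 lay below SYK in NALM6 (45.8 against 75.1 RPKM) and REH (0.591 against 48.8 RPKM). In the authors' deposited Cuffdiff table the group FPKM with the translocation were 46.2 for ZAP70 and 38.8 for SYK. Without it they were 26.2 and 61.6. Of the T and NK cell markers, NKG7 was also lower in REH than in RS4;11 and SEM, though not lower than in NALM6, and the T cell receptor subunits CD3D, CD3E and CD3G had 0 counts in each line. The part of such genes in the ZAP70 level was not tested. Among the TEC family BTK led in every line and made up between 79.5% (SEM) and 94.4% (NALM6) of the family sum. TEC had 54.8 and 47.0 CPM with the translocation against 18.4 and 21.7 CPM without (edgeR: log2 fold change 1.45 ± 0.24 SE, adjusted p = 0.310) and was picked after its values were seen.

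Per length the order of the 10 members changed with the line. IGLL1 was the most abundant in RS4;11 (513 RPKM), NALM6 (591 RPKM) and REH (560 RPKM), while in SEM CD79A led with 83.7 RPKM, followed by BTK with 52.2 RPKM and IGLL1 with 30.1 RPKM. BLNK was the lowest of the 10 in both translocated lines, VPREB1 was the lowest in REH at 0.299 RPKM and BLK was the lowest in NALM6 at 22.5 RPKM. In the authors' deposited Cuffdiff table, whose length-scaled FPKM summarise each group, IGLL1 had 346 with the translocation and 675 without, and BLNK had 2.19 and 99.8.

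Within the translocated group all 10 members were lower in SEM than in RS4;11, a direction shown by 48.9% of the tested genes, and this also held with TMM scaling and with the authors' size factors. The difference was at least 10-fold for 5 members (VPREB1, IGLL1, VPREB3, CD79B and BLNK) and for 2.95% of tested genes. It was 38.2-fold for BLNK, 18.7-fold for VPREB3, 17.9-fold for VPREB1, 17.0-fold for IGLL1 and 12.6-fold for CD79B. CD79A (2.71-fold), SYK (1.96-fold), LYN (1.43-fold), BTK (1.27-fold) and BLK (1.23-fold) differed less. Each receptor gene among the 10, and the adaptor, lay farther apart between these lines than each kinase. The median log2 difference, RS4;11 over SEM on log2(CPM + 1), was 2.08 over the members and -0.01 over all tested genes.

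Between NALM6 and REH the members went in both directions, with 6 higher in NALM6 and 4 higher in REH. A difference of 10-fold or more was seen for VPREB1 and LYN, both higher in NALM6, and for 10.8% of tested genes in either direction. BLNK, VPREB3 and CD79A were 2.90-fold, 2.57-fold and 2.51-fold higher in REH, and CD79B was 1.33-fold higher there. IGLL1 differed by 1.05-fold. Each of these pairs compares 2 libraries, so neither carries a test.

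**Figure D3:**
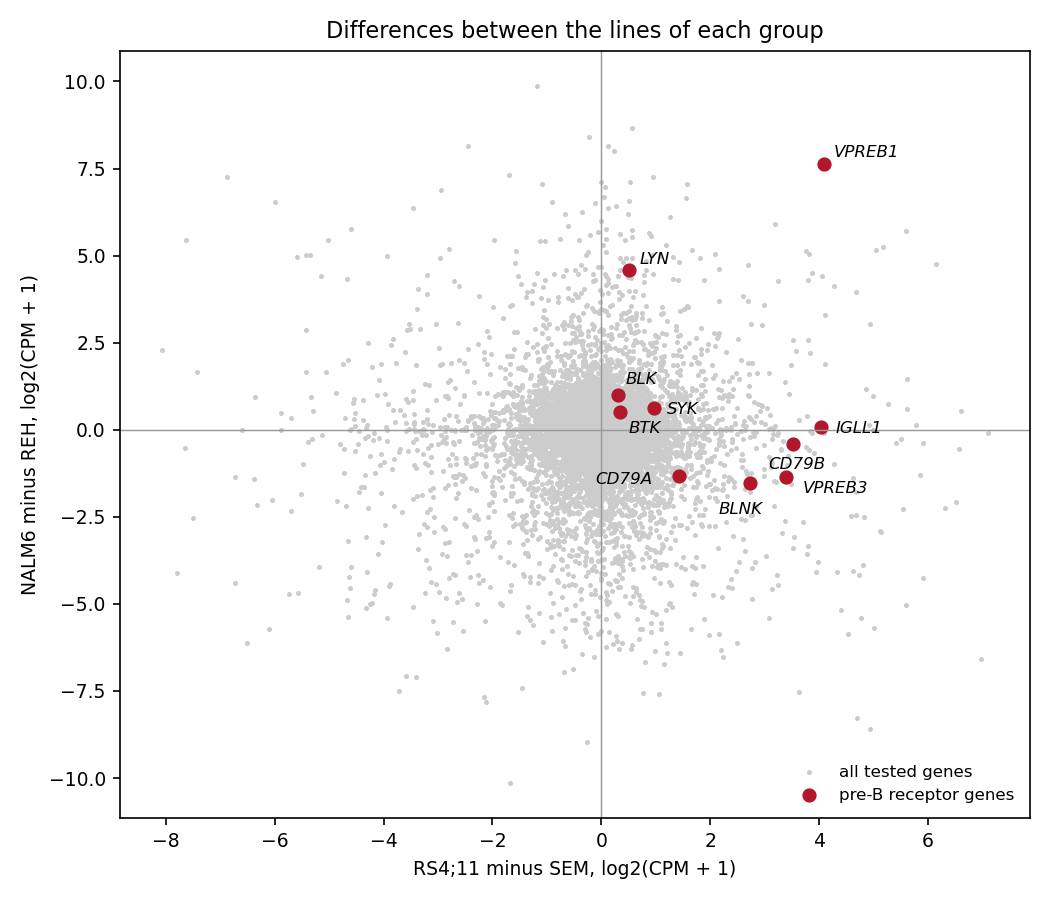
Difference between the lines of each group for every tested gene (grey) and the 10 members (red), on log2(CPM + 1): RS4;11 minus SEM on the horizontal axis and NALM6 minus REH on the vertical axis. All 10 members lie right of 0, and VPREB1 and LYN stand highest on the vertical axis among them.

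Beyond the members, 45 other genes of the pathway were listed by role, and 43 passed the filter on low counts. The edgeR quasi-likelihood test called 0 of the 43, and at an unadjusted p under 0.05 it gave 2 higher (BANK1 and PECAM1) and 8 lower, where it gave 6.18% and 5.87% of all tested genes. The authors' deposited DESeq table called 1 lower (ITPR3), against 0.630% of its genes, and the authors' deposited Cuffdiff table called 2 higher (BANK1 and PTPRC) and 4 lower (PLCG1, ITPR3, PRKCB and PAG1), against 1.23% and 1.11%. Both t(4;11) lines stood above both others for 7 genes and below for 13, or 16.3% and 30.2% of the 43, close to the 19.0% and 28.3% of all tested genes. With TMM scaling the counts were 9 and 12, beside 24.2% and 23.4% of all tested genes. The list as a whole had a median log2 fold change of 0.09.

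The enzymes and channels that turn the signal into lipid messengers and calcium gave a median of -0.80 on the log2 scale over 15 genes, of which 7 lay below NALM6 and REH in both translocated lines (28.3% of all tested genes, 23.4% with TMM). Another 3 genes (ITPR2, RASGRP3 and MALT1) lay above in both (19.0% of all tested genes), and 4 did so with TMM (24.2%). ITPR3, a calcium release channel of the endoplasmic reticulum, had 1.14 CPM in RS4;11, 0.416 in SEM, 224 in NALM6 and 309 in REH (edgeR: log2 fold change -8.29 ± 0.73 SE, adjusted p = 0.213). Its adjusted p in the authors' deposited DESeq table was 4.05e-34. The other channel genes differed less, with log2 fold changes of -0.80 for ITPR1 and 1.05 for ITPR2. PRKCB, the protein kinase C isoform that activates NF-kappa B in B cells, had 7.15 and 18.6 CPM with the translocation and 68.5 and 256 CPM without it (edgeR: log2 fold change -3.56 ± 0.94 SE, adjusted p = 0.367). PLCG1, a phospholipase C gamma, had 38.3 (RS4;11), 28.9 (SEM), 113 (NALM6) and 198 (REH) CPM (edgeR: log2 fold change -2.11 ± 0.39 SE, adjusted p = 0.310). PLCG2, the form that BLNK recruits in B cells, had 95.7 (RS4;11), 68.1 (SEM), 245 (NALM6) and 212 (REH) CPM, with a log2 fold change of -1.37 ± 0.25 (SE, adjusted p = 0.310 by edgeR). RASGRP3, a RAS activator, went the other way at low levels (edgeR: log2 fold change 2.60 ± 1.06 SE, adjusted p = 0.457), from 0.201 CPM in NALM6 to 4.13 in SEM.

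Co-receptor and coupling genes gave a median of 0.43 over the 12 tested. BANK1, a B cell scaffold protein, had 3.51 CPM in RS4;11, 118 in SEM, 0.580 in NALM6 and 0.249 in REH (edgeR: log2 fold change 7.29 ± 2.15 SE, adjusted p = 0.382). SEM was the highest line for BANK1 and the lowest for 7 of the members. In REH, the line with little LYN, the adaptor DAPP1, also known as BAM32, had 6 counts (0.0712 CPM) against 14.6 to 21.8 CPM in the others. VAV2, a guanine nucleotide exchange factor, had 0 counts in NALM6, which allows up to 0.0669 CPM, and at least 54.6 CPM in each other line. Like PLCG2, ITPR1, ITPR2, EBF1, PAX5 and TCF3, both were picked after their values were seen.

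Inhibitors of the pathway gave a median of 0.02 over the 15 tested. PTPN6, the phosphatase SHP-1, had 439 CPM in RS4;11, 442 in SEM, 281 in NALM6 and 57.2 in REH (edgeR: log2 fold change 1.49 ± 0.83 SE, adjusted p = 0.548). PAG1, which holds the SRC-family inhibitor CSK at the membrane, had 292 CPM in RS4;11, 28.6 in SEM, 524 in NALM6 and 773 in REH (edgeR: log2 fold change -1.90 ± 1.19 SE, adjusted p = 0.585). PAG1 had the SEM-low order seen for CD79B. PECAM1, a receptor with inhibitory motifs, had 1.20 (RS4;11), 15.2 (SEM), 0.134 (NALM6) and 0.154 (REH) CPM. PTPRC, the phosphatase CD45 that removes the inhibitory phosphate of SRC-family kinases, had 674 CPM in RS4;11, 93.4 in SEM, 44.9 in NALM6 and 209 in REH. The groups overlapped for PTPRC, and its log2 fold change was 1.71 ± 1.29 (SE, adjusted p = 0.645 by edgeR).

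**Figure D4:**
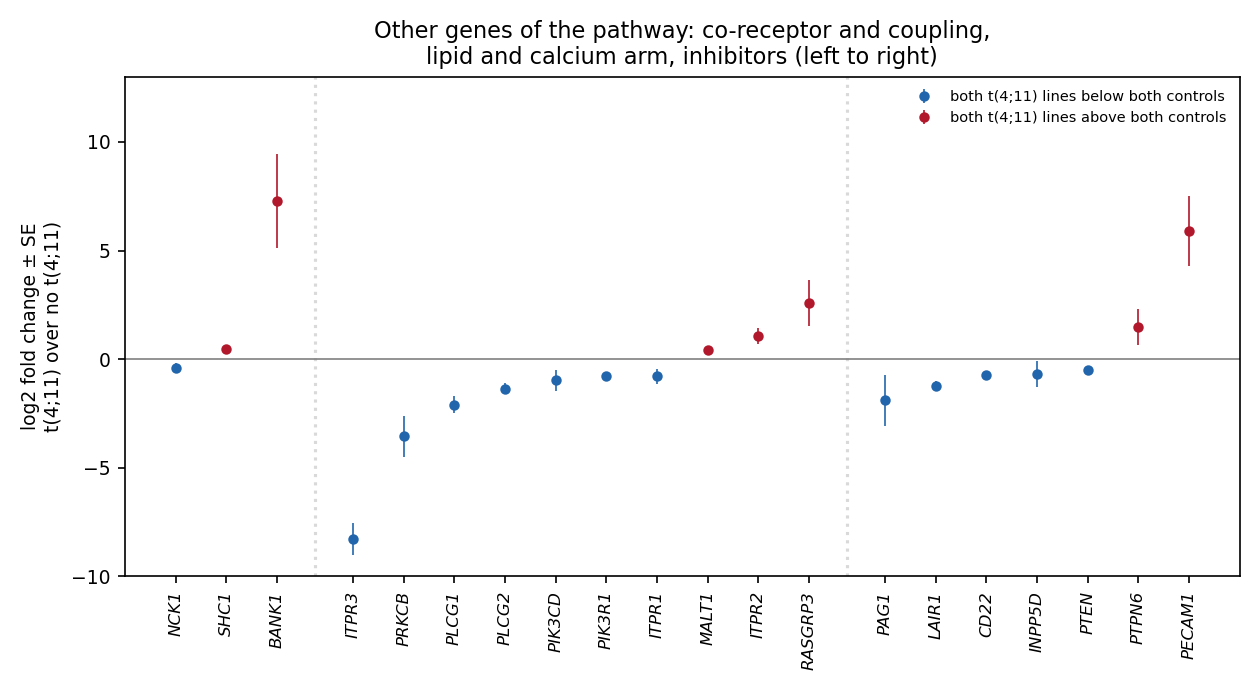
Log2 fold change with its standard error, t(4;11) over no t(4;11), for the 20 tested genes of the pathway outside the 10 members whose groups did not overlap in CPM, in blocks by role. Of these, 13 genes are below in both translocated lines and 7 above, with ITPR3 lowest at -8.29 and BANK1 highest at 7.29.

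Of 17 transcription factors known to act on B-lineage genes, 13 were lower in SEM than in RS4;11, as were 48.9% of all tested genes. EBF1, PAX5 and TCF3, factors of early B cell development, were present in all 4 lines. EBF1 had 351, 189, 293 and 379 CPM in RS4;11, SEM, NALM6 and REH. PAX5 had 273, 419, 404 and 254 CPM, and TCF3 had 692, 397, 523 and 687 CPM. FOXO1, a factor held in check by PI3 kinase signalling, had 65.2 CPM in RS4;11, 1.70 in SEM, 141 in NALM6 and 370 in REH, the same order of lines as VPREB3 and BLNK. Its log2 fold change was -2.82 ± 1.80 (SE, adjusted p = 0.589 by edgeR), and the authors' deposited Cuffdiff table called it lower (q = 0.00418). POU2AF1, the octamer coactivator, followed that order too, with 84.8, 17.9, 151 and 295 CPM. BACH2, a repressor of plasma cell genes, had 80.4 (RS4;11), 10.1 (SEM), 525 (NALM6) and 315 (REH) CPM and was called lower in the authors' deposited DESeq table (adjusted p = 0.0265). RUNX1 was called higher in that table (the authors' deposited DESeq table, adjusted p = 0.0266), with 586 (RS4;11), 794 (SEM), 194 (NALM6) and 285 (REH) CPM. The deposited Cuffdiff table also called POU2AF1 (q = 0.0308) and BACH2 (q = 0.00418) lower and RUNX1 higher (q = 0.0295). Of the 17 factors, deposited DESeq called 1 lower and 1 higher, against 0.630% and 0.934% of its genes. Deposited Cuffdiff called 3 lower and 1 higher, against 1.11% and 1.23%. No factor was called by edgeR's quasi-likelihood test, and RUNX1 alone had an unadjusted p under 0.05 (0.00713). That test gave an unadjusted p under 0.05 to 6.18% of all tested genes as higher and 5.87% as lower.

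Genes most alike in pattern were sought for the 3 members with the widest span, by the Euclidean distance over the 4 lines between log2(CPM + 1) values centred on each gene, among 9544 genes with a mean of at least 10 CPM. For VPREB1 the nearest were PHYHD1 (distance 1.62), IRF4 (1.85) and LILRB4 (2.23). IRF4, a factor of the pre-B to B transition, had 203 CPM in RS4;11, 67.3 in SEM, 414 in NALM6 and 2.13 in REH. For BLNK the nearest were ZNF608 (0.84), BEST3 (0.89) and KDM5B (1.12). KDM5B, a histone H3K4 demethylase, had 3.60 and 0.327 CPM with the translocation and 158 and 266 CPM without it. For VPREB3 the nearest were SPINT2 (0.50), POMT1 (0.80) and FOXO1 (0.87). Among the members themselves BLK and BTK were closest (0.56), and VPREB1 and BLNK were farthest apart (10.12). With 4 lines such a likeness is a description of these libraries only.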

How the data were processed

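TRI Reagent RNA was made into TruSeq libraries, per the labels' protocols, with a kit that does not mark strand, so overlapping and antisense genes cannot be told apart. The submitters' processing notes list hg19, HTSeq, Cuffdiff, DESeq, CASAVA 1.8.2, TopHat and TopHat2 2.0.4. The sources used here give neither their settings nor the annotation. The authors deposited raw HTSeq counts for each line, and DESeq normalized counts (a signal: each count divided by 1 size factor per line) with group means. The deposited fold change is the ratio of group means, control over t(4;11), and comes with p-values. The deposited Cuffdiff table has a group FPKM, its log2 fold change, q-values, and a score as test statistic. Both fold changes were inverted here. Coordinates marked hg19 are Cuffdiff loci with the start counted from 1.

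CPM used the column sums. The test was edgeR 4.0.16 (R 4.3.3): TMM, filterByExpr, glmQLFit and glmQLFTest, two-sided, on 13844 genes and 4 lines, with 2 residual degrees of freedom and Benjamini-Hochberg adjustment at 0.05. The standard error is the log2 fold change divided by the square root of F. The fit was run on simulated counts with known fold changes, which checked the direction of change and not this standard error. RPKM used the union of exons of GENCODE basic transcripts (GRCh38, lengths only). Any order of genes by RPKM depends on these lengths, which may differ from the annotation behind the counts. A floor of 3 counts is the limit given for 0 counts. All intervals and floors cover counting error only, since reads are not independent molecules. Depth gives floors of 0.0578 CPM in RS4;11, 0.0892 in SEM, 0.0669 in NALM6 and 0.0356 in REH. The labels name no batch and no replicate cultures, so p-values measure the spread between lines. Alternatives were DESeq2 1.42.0, the exact test of edgeR, other scalings and filters, and each line left out.

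Named genes outside the members were those called in a deposited table and up to 5 higher and 5 lower with the largest log2 fold change among genes whose groups do not overlap. LCP2, LAT2, CLNK, IGLL5 and MALT1 were named outside this rule. So were markers, genes most alike in pattern and genes said to be picked after their values were seen. Members and lists were chosen with earlier results of these data known. Immunoglobulin heavy chain genes were not analysed here, and some genes of the lists are not reported here. Figures were drawn with matplotlib 3.10.9.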

Additional observations from a re-analysis of the deposited data

How the results depend on the processing

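The count of 0 called genes depended on the method: the quasi-likelihood test called 5 genes with no filter on low counts and 4 with at least 1 CPM in at least 2 lines, edgeR's exact test called 408 and DESeq2 1586, while 288 genes were called by DESeq and 332 by Cuffdiff as the authors deposited them. Members called were 1 by DESeq2, and 1 (DESeq) and 3 (Cuffdiff) in the authors' deposited tables. Of 43 pathway genes tested, edgeR's exact test called 4 (1 higher and 3 lower), against 1.91% and 1.03% of all tested genes. DESeq2 called 9 of 42 pathway genes (2 higher and 7 lower), against 5.64% and 5.53% of 14192 genes. The authors' deposited DESeq table called 1 of 45 (lower), against 0.630% of its genes. The authors' deposited Cuffdiff table called 6 of 43 (2 higher and 4 lower), against 1.23% and 1.11%. With any 1 line left out the quasi-likelihood test called 0 genes in each case, and the lone line of a group was then assumed to vary like the other group. Of 120 log2 fold changes of members under the alternatives, 108 kept their direction and their side of the threshold, 5 passed the threshold and 7 changed sign. The changes of sign were -2.80 for VPREB1 without RS4;11 and -0.55 without REH, 0.01 for CD79A without SEM and 0.25 without REH, -0.29 for LYN and -0.24 for BLK without REH, and 0.09 for BTK without NALM6. With each line left out in turn the values ran from -2.80 to 9.52 for VPREB1, -1.46 to 0.25 for CD79A, -0.29 to 4.46 for LYN, -0.24 to 0.79 for BLK and -0.43 to 0.09 for BTK. The causes of these changes were not tested beyond the omitted line. Using library size alone moved the median log2 fold change of all genes by -0.10. The alternatives on the count of members lower in SEM and of pathway genes without overlap were chosen after seeing the data, and neither moved its count by over 1.5 times. No paired analysis was possible because the labels give the lines no replicate numbers and nothing pairs a line of one group with a line of the other. Few counts underlie VPREB1 in REH (19), BLNK in SEM (6) and VPREB3 in SEM (39). REH was the deepest library and SEM the shallowest.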
